A study of Mus musculus with 6 samples.

Results

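Of 23420 genes counted in tumor regulatory T cells (Tregs), 10 genes of the TGF-beta receptor and SMAD signalling chain are described here: the receptors Tgfbr1 and Tgfbr2, the signal carriers Smad2, Smad3 and Smad4, the inhibitors Smad7 and Ldlrad4, and the nuclear co-repressors Ski, Skil and Tgif1. They were chosen by name for their roles, with earlier results of these data known. All 10 were present in the count table, and all 10 passed the filter on low counts. Libraries 4, 5 and 6 held Tregs from T11 tumors of mice treated with J43, an antibody against PD-1, at 200 µg per dose and 2 doses a week into the peritoneum. Libraries 1, 2 and 3 held Tregs from T11 tumors of untreated mice. T11 is a transplanted mouse mammary tumor of the claudin-low, triple-negative kind. All mice were BALB/c animals in which cells expressing Foxp3, the lineage factor of Tregs, carry GFP. Each received 10000 tumor cells, and tumors were taken at 150 mm2. Cells were sorted on GFP with a stated purity above 90%. Neither the age nor the sex of the mice is stated. Whether each library stands for its own mouse is not stated either, so the p-values below reflect the spread among libraries, and that spread may be technical.

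TGF-beta binds the type II receptor Tgfbr2, which phosphorylates and switches on the type I receptor Tgfbr1. Tgfbr1 phosphorylates Smad2 and Smad3, which join Smad4, enter the nucleus and bind DNA, while Ski, Skil and Tgif1 restrain transcription at the same sites. Smad7 and Skil are themselves induced by the signal and feed back on it. In T cells the pathway is known for supporting Foxp3 expression and the integrin Itgae (CD103), and for limiting effector functions.

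Total counts ran from 4766533 to 5219249 in the anti-PD-1 libraries and from 5470816 to 6686774 in the untreated libraries, so every untreated library was deeper. The ribosomal RNA gene Rn45s took between 21.4% and 25.1% of counts per library. Untreated library 1 stood apart from the other 5 on the leading axis of a multidimensional scaling (2.40, against -0.66 to -0.39 for the others), so values without it are given below where they moved most. Foxp3 lay between 462 and 563 CPM (counts relative to each library's TMM-scaled total) after anti-PD-1 and between 438 and 461 CPM untreated, and Cd4 was at least 365 CPM in every library. The 9 Treg markers together took 0.622% to 0.704% of counts in anti-PD-1 libraries and 0.733% to 0.747% in untreated ones, without overlap (exact permutation test, two-sided, p = 0.1, the smallest that 3 against 3 libraries allow, adjusted p = 0.55 over 11 marker lists). These markers did not share a direction. Ctla4 (1193 to 1320 CPM after anti-PD-1, 1495 to 1843 untreated) and Ikzf2 (1684 to 1922 after anti-PD-1, 2004 to 2365 untreated) were lower without overlap. Foxp3 and Cd4 (468 to 498 CPM after anti-PD-1, 365 to 460 untreated) were higher without overlap. The groups of the other Treg markers overlapped. The 10 macrophage and monocyte markers took 0.00157% to 0.00372% after anti-PD-1 and 0.00156% to 0.00291% untreated, with C1qa at 0 in every library. The 2 CD8 T cell markers took 0.00188% to 0.00518% after anti-PD-1 and 0.00103% to 0.00318% untreated. The 5 endothelial markers were also without overlap, at 0.00845% to 0.0125% after anti-PD-1 and 0.0066% to 0.0075% untreated (exact permutation p = 0.1). All of this came from Pecam1, which T cells can also express, and the other 4 endothelial markers were at 0 in every library. The 9 tumor and fibroblast markers took 0.104% to 0.167% after anti-PD-1 and 0.138% to 0.180% untreated, most of it Vim at 998 to 1740 CPM, with Fn1 at 23.3 to 45.9 CPM. Of the same list, Dcn and Pdgfra were at 0 in every library and Col1a1 was at most 4.36 CPM. The part of these differences in the values below was not tested. In bulk RNA, fewer cells of a type and less RNA per cell cannot be told apart.

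The main comparison asked whether the level of each gene differed between Tregs of mice given anti-PD-1 and of untreated mice. None of the 10 genes rose or fell past the threshold of 0.05 in edgeR's quasi-likelihood test, with Benjamini-Hochberg adjustment over 10352 genes, where 0.029% of all genes passed. EdgeR's adjusted p ranged from 0.593 for Tgfbr1 to 0.992 for Smad7. In DESeq2, likewise, none of the 10 genes passed, where 0.785% of all genes with an adjusted p did, and its adjusted p ranged from 0.419 to 0.997. At an unadjusted p under 0.05 stood 1 of the 10, Tgfbr1, with a lower value in both tools (all genes: 8.3% in edgeR, of which 4.23% with higher and 4.07% with lower values, and 7.78% in DESeq2). In none of the 10 did the groups separate fully, where 13.6% of all tested genes did. The log2 fold changes lay between -0.33 and 0.31, 6 above 0 and 4 below, with a median of 0.04 against 0.00 over all tested genes. Their median size without sign was 0.16, against 0.27 over all tested genes. Their SEs, from 0.15 to 0.22, lay below the median SE of 0.34 over all tested genes. The median sizes were thus not compared at like precision. Counts behind each value ran from 244 for Smad2 in anti-PD-1 library 5 to 15571 for Skil in untreated library 1. The 95% intervals of the fold changes of all 10 genes lay between a 1.58-fold lower and a 1.69-fold higher level after anti-PD-1. The lower limit was that of Tgfbr1 and the upper that of Ldlrad4. At this depth and number of libraries, changes within a gene's own interval were not excluded, such as 0.80-fold to 1.22-fold for Tgif1.

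**Figure D1:**
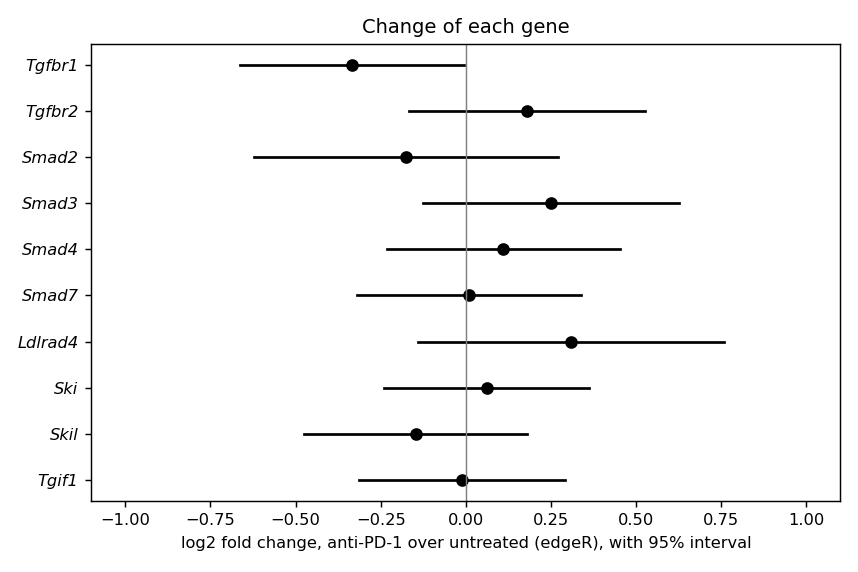
Log2 fold change of each gene, anti-PD-1 over untreated, from edgeR (points) with its 95% interval (lines). The interval of Tgfbr1 runs from -0.66 to -0.01, and the intervals of the other 9 genes include 0.

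The receptors had opposite signs. Tgfbr1, the type I receptor kinase, stood at 233, 287 and 250.5 CPM after anti-PD-1 (libraries 4, 5 and 6, in that order throughout), against 283, 306 and 383 CPM untreated (libraries 1, 2 and 3). Only anti-PD-1 library 5 reached into the untreated range, where it exceeded only untreated library 1. The means were 257 ± 27.5 CPM after anti-PD-1 and 324 ± 52.1 CPM untreated (SD, n = 3 each). The log2 fold change was -0.33 ± 0.16 (SE, edgeR adjusted p = 0.593). Without untreated library 1 the value was -0.43, and without untreated library 3 it was -0.20 (edgeR adjusted p = 0.415 and 0.723, between 0.415 and 0.921 in all its alternatives). Tgfbr2, the ligand-binding type II receptor, stood at 259, 264 and 278 CPM after anti-PD-1, against 180.3, 240 and 287 CPM untreated. The untreated libraries thus spanned both sides of the anti-PD-1 values. Its log2 fold change was 0.18 ± 0.17 (SE, edgeR adjusted p = 0.817), and it was 0.02 without untreated library 1 and 0.34 without untreated library 3. The unadjusted p of Tgfbr1 did not stay under 0.05 without anti-PD-1 library 4 or 6 or without untreated library 2 or 3. The sign of each receptor's value was the same in all 17 alternative settings.

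The balance of both receptors within a library needs no scaling between libraries. The ratio of Tgfbr1 counts to Tgfbr2 counts was 0.90, 1.09 and 0.90 in anti-PD-1 libraries 4, 5 and 6, against 1.57, 1.28 and 1.33 in untreated libraries 1, 2 and 3. Every anti-PD-1 library thus had a lower ratio than every untreated library. The mean log2 ratio was -0.06 ± 0.16 after anti-PD-1 and 0.47 ± 0.16 untreated (SD, n = 3 each), a difference of -0.53 with a range from -0.62 to -0.44 when 1 library was left out. The exact permutation test of this difference (two-sided, 6 libraries) gave p = 0.1, the smallest this design allows, and an adjusted p of 0.4 over 4 ratios, so it could not reach 0.05.

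**Figure D2:**
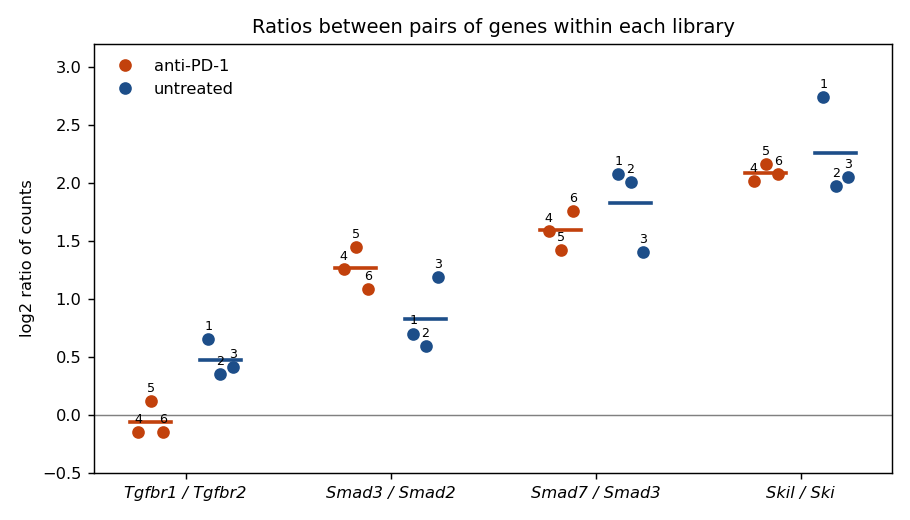
Log2 ratio of the counts of 2 genes in each library (points, numbered by library) with the mean of each group (lines), for 4 pairs of genes. Only for Tgfbr1 over Tgfbr2 do the anti-PD-1 libraries (-0.15 to 0.12) and the untreated libraries (0.35 to 0.65) not overlap.

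Because the receptor pair was the pair whose ratio separated the groups, their promoters are shown, as the 250 bases before the RefSeq transcription start (GRCm38.p6, 5′ to 3′). Capitals mark matches on either strand to CAGAC, the core SMAD box (reverse complement GTCTG), or GGCGC, a GC-rich motif that SMADs also bind (reverse complement GCGCC), with overlapping matches counted separately.
Tgfbr1 (chr4:47352972-47353221, plus strand): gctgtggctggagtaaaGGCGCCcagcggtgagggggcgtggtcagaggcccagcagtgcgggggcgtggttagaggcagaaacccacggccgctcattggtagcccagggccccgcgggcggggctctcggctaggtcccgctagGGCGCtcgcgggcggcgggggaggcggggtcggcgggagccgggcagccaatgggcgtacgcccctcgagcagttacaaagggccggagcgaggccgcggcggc
Tgfbr2 (chr9:116175364-116175613, minus strand): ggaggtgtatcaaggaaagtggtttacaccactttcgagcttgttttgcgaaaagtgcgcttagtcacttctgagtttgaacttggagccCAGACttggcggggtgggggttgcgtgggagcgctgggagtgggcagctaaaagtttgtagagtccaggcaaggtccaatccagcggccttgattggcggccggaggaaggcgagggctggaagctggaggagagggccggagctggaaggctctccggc
The Tgfbr1 window held 3 GGCGC matches, 2 of them overlapping, and 0 CAGAC matches, and the Tgfbr2 window held 1 CAGAC match and 0 GGCGC matches. A second RefSeq start of Tgfbr1 has a window (chr4:47385966-47386215, plus strand) with 1 CAGAC match, 0 GGCGC matches and 52.8% G and C, so the difference from Tgfbr2 holds for the printed window alone. CAGAC occurs in 42.2% and GGCGC in 32.0% of 32851 RefSeq windows of the same length, so either match is common. The windows also differ in base composition, with 74.8% G and C in the printed Tgfbr1 window and 58.4% in Tgfbr2 against a median of 52.4%. A match is a description of these letters only. Of the 10 genes, 5 had a promoter in the RefSeq table. The printed Tgfbr1 window belongs to a RefSeq start that lies 83 bases before the start in the deposited annotation, and the second start lies 32911 bases after it.

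In the deposited mm10 annotation, Tgfbr1 lies on chromosome 4 (47353305 to 47414924, plus strand) and Tgfbr2 on chromosome 9 (116087695 to 116175363, minus strand). Smad2, Smad4, Smad7 and Ldlrad4 all lie on chromosome 18, where Smad7 and Smad2 are 846 kb apart and Smad4 and Smad7 1664 kb apart. No exon of the 10 genes shares bases with an exon of another gene in the deposited annotation, on either strand. Counts were per gene over all exons, so isoforms could not be told apart.

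Among the signal carriers, Smad3 was higher on average and Smad2 lower after anti-PD-1, and neither passed. Smad3, the receptor-activated SMAD that binds DNA directly, stood at 142, 138 and 124 CPM after anti-PD-1, against 119, 90.1 and 130 CPM untreated. Untreated library 3 was above anti-PD-1 library 6, and untreated library 2 was the lowest of all. Smad2, its partner whose main form does not bind DNA directly, stood at 59.1, 50.6 and 58.2 CPM after anti-PD-1, against 73.3, 59.5 and 56.8 CPM untreated. Here untreated library 3 lay within the anti-PD-1 range. The log2 fold changes were 0.25 ± 0.18 for Smad3 and -0.18 ± 0.22 for Smad2 (SE, edgeR adjusted p = 0.747 and 0.862). With 1 library left out, Smad3 lay between 0.12 (without untreated library 2) and 0.36 (without untreated library 3), and Smad2 between -0.25 (without untreated library 3) and -0.05 (without untreated library 1). Smad4, the common partner that completes the nuclear complex, stood at 156, 160.3 and 142 CPM after anti-PD-1, against 151, 131 and 143 CPM untreated. Its log2 fold change was 0.11 ± 0.17 (SE, edgeR adjusted p = 0.892), with a 95% interval from -0.23 to 0.45, and it lay between 0.06 (without untreated library 2) and 0.16 with 1 library left out.

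The ratio of Smad3 counts to Smad2 counts was 2.40, 2.73 and 2.12 in anti-PD-1 libraries, against 1.63, 1.51 and 2.28 in untreated libraries. Untreated library 3 exceeded anti-PD-1 library 6, and the other untreated libraries lay below all 3 anti-PD-1 libraries. The difference of the mean log2 ratios was 0.44 (two-sided exact permutation p = 0.2, adjusted p = 0.4 over 4 ratios), with a range from 0.32 to 0.62 when 1 library was left out. Without untreated library 3 the groups did not overlap, and the same held without anti-PD-1 library 6.

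The inhibitors of the receptor and of SMAD activation did not pass either. Smad7, the inhibitory SMAD that blocks Tgfbr1 and brings ubiquitin ligases to it, stood at 428, 371 and 419 CPM after anti-PD-1, against 504, 363 and 343 CPM untreated. Untreated library 1 had the highest value of all and untreated libraries 2 and 3 the lowest. The means were 406 ± 30.4 CPM after anti-PD-1 and 403 ± 87.7 CPM untreated (SD, n = 3 each). The 95% interval of its log2 fold change of 0.01 ran from -0.32 to 0.34 (edgeR adjusted p = 0.992). Without untreated library 1 the log2 fold change was 0.20, and every anti-PD-1 library was then above both remaining untreated libraries (edgeR adjusted p = 0.753, between 0.753 and 0.9996 in all its alternatives). Ldlrad4, a membrane protein that keeps Smad2 and Smad3 from the receptor, stood at 77.1, 79.2 and 60.7 CPM after anti-PD-1, against 50.2, 54.1 and 71.2 CPM untreated. Its value in anti-PD-1 library 6 lay below that in untreated library 3, and its other 2 anti-PD-1 values lay above all untreated ones. It had the highest log2 fold change of the 10 genes, 0.31 ± 0.22 (SE, edgeR adjusted p = 0.741), with a range from 0.21 to 0.47 when 1 library was left out. The ratio of Smad7 counts to Smad3 counts was 3.01, 2.68 and 3.39 in anti-PD-1 libraries, against 4.22, 4.02 and 2.65 in untreated ones. Its groups overlapped through untreated library 3 (difference of mean log2 ratios -0.24, two-sided exact permutation p = 0.4, adjusted p = 0.533). The difference was -0.45 without untreated library 3, where the groups did not overlap, and -0.11 without untreated library 1.

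No co-repressor passed. Skil (SnoN), a co-repressor that is degraded when the pathway is active and then re-made as a target gene, stood at 1802, 1614 and 1691 CPM after anti-PD-1, against 2498, 1623 and 1535 CPM untreated. Untreated library 1 was far above the other 5 libraries, which lay within 1535 to 1802 CPM. The log2 fold change was -0.15 ± 0.16 (SE, edgeR adjusted p = 0.839), and 0.11 without untreated library 1, so the sign rested on that library. Ski, the founding member of the same family, stood at 444, 361 and 400.4 CPM after anti-PD-1, against 373, 414 and 369 CPM untreated, with a log2 fold change of 0.06 ± 0.15 (SE, edgeR adjusted p = 0.940). Its groups overlapped widely, and its sign turned without anti-PD-1 library 4 (-0.02). Tgif1, a homeodomain protein that joins the Smad2 complex and recruits repressors, stood at 455, 430.2 and 399 CPM after anti-PD-1, against 474, 451 and 371 CPM untreated. It showed no separation of the groups, with a log2 fold change of -0.01 whose 95% interval ran from -0.32 to 0.29 (edgeR adjusted p = 0.990), and its sign turned with the scaling. The ratio of Skil counts to Ski counts was 4.06, 4.48 and 4.22 in anti-PD-1 libraries, against 6.69, 3.92 and 4.16 in untreated ones. The difference of mean log2 ratios was -0.17 (two-sided exact permutation p = 0.9, adjusted p = 0.9) and 0.07 without untreated library 1.

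**Figure D3:**
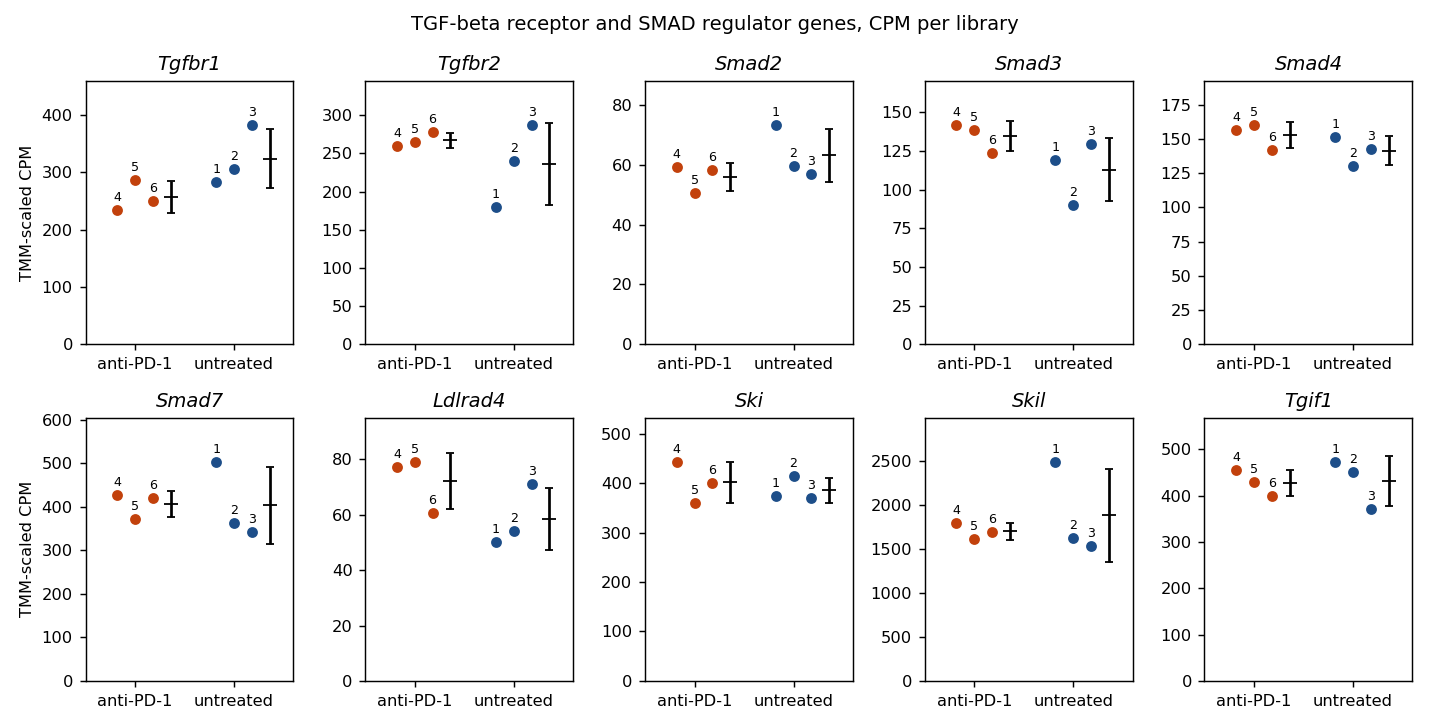
TMM-scaled CPM of each gene in each library (points, numbered by library), with mean and SD of each group (black bars, n = 3), anti-PD-1 left of untreated. In each of the 10 panels the groups overlap, and untreated library 1 is the highest point for Skil (2498 CPM), Smad7, Smad2 and Tgif1.

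With all 3 untreated libraries included, most of the 10 genes varied more among untreated than among anti-PD-1 libraries. The coefficient of variation (SD over mean of CPM, n = 3) was larger in the untreated group for 9 of the 10 genes, the exception being Ski, where this was so for 57.6% of all tested genes. Its median over the 10 genes was 7.33% in anti-PD-1 and 17.1% in untreated libraries, against 21.99% after anti-PD-1 and 25.8% untreated over all tested genes. For Tgfbr2 the coefficient was 3.52% after anti-PD-1 and 22.7% untreated, and for Skil 5.54% after anti-PD-1 and 28.2% untreated. The untreated spread of Skil came from untreated library 1 (2498 CPM), as untreated libraries 2 and 3 stood at 1623 and 1535 CPM. Smad7 likewise stood at 504 CPM there, against 363 and 343 CPM. For Tgfbr2, untreated libraries 2 and 3 still differed, at 240 and 287 CPM. The coefficients were not recomputed without untreated library 1. Untreated library 1 held the highest or the lowest value for 6 of the 10 genes, where it did so for 53% of all tested genes. It was highest for Smad2, Smad7, Skil and Tgif1 and lowest for Tgfbr2 and Ldlrad4. Of the 10 genes 9 stood above the median level of all tested genes, so the sets compared here were not matched for level. These spreads are descriptions and were not tested.

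Levels of different genes were compared per length, as TPM computed from the counts and the deposited gene lengths. Skil was the highest, with a mean of 613 ± 51.6 TPM after anti-PD-1 and 715 ± 197 untreated (SD, n = 3 each). Tgif1 followed, at 407 ± 39.7 TPM after anti-PD-1 and 432 ± 44.3 untreated. Skil and Tgif1 were also high among all tested genes, at percentiles 98.6 and 97.5 of the mean level. Smad7, the third, averaged 232 TPM after anti-PD-1 and 243 untreated, and Ski averaged 187 TPM after anti-PD-1 and 189 untreated. Tgfbr2 averaged 142 TPM after anti-PD-1 and 133 untreated, Tgfbr1 115 after anti-PD-1 and 154 untreated, and Smad4 116 after anti-PD-1 and 114 untreated. From Smad7 down to Smad4, each gene's range over the 6 libraries overlapped that of the next. Ldlrad4 lay below, at 73.9 TPM after anti-PD-1 and 63.2 untreated, and overlapped Smad3, at 67.3 TPM after anti-PD-1 and 59.8 untreated. Smad2 was the lowest, at 15.6 TPM after anti-PD-1 and 18.5 untreated, 3.73-fold below Smad3 on the mean of all libraries and at percentile 42.1 of all tested genes. The other 9 genes stood above the median tested gene. Smad2 has the longest deposited length of the 10 genes, 9142 bases, so its level per length depends on how much of that length these cells transcribe.

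**Figure D4:**
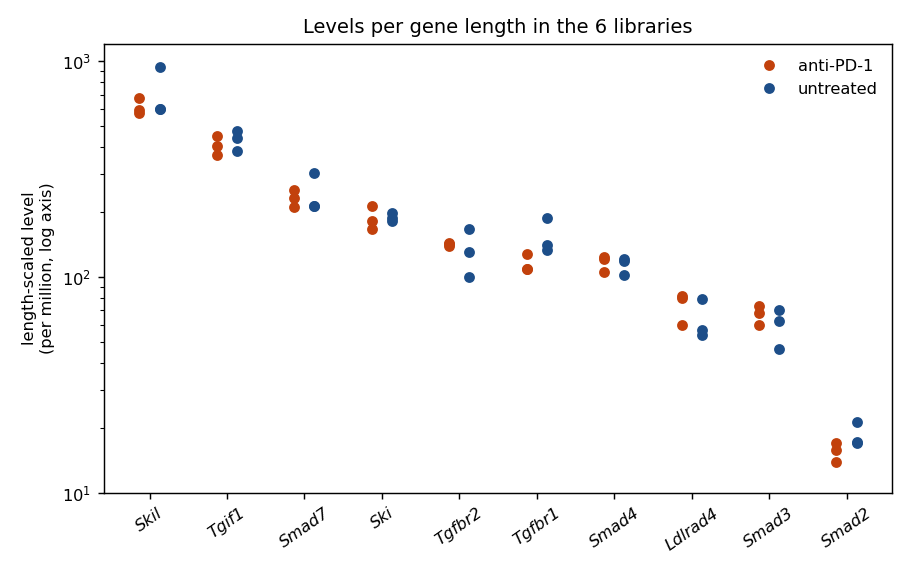
Length-scaled level (TPM, log axis) of each gene in the 3 anti-PD-1 and 3 untreated libraries, ordered by the mean over all 6. Skil and Tgif1 lie above the other 8 genes in every library and Smad2, at 13.9 to 21.4 TPM, below them.

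The other genes of the pathway were set beside these 10 in 9 lists by role, which were chosen with earlier results of these data known. Of 109 list genes 89 were tested, and 1 of them, Klf2, rose in edgeR's test, while none fell (all genes: 0.029% and 0%). At an unadjusted p under 0.05 stood 5 of the 89 with higher and 8 with lower values (all genes: 4.23% and 4.07%), and the groups did not overlap in 7 with higher and 7 with lower values (all genes: 7.18% and 6.44%). The median log2 fold change over the 89 was 0.01, against 0.00 over all tested genes.

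Genes that make or release active TGF-beta included the ligand itself and the integrins that free it from its latent form. Tgfb1, the main TGF-beta ligand of immune cells, averaged 189 ± 25.3 CPM after anti-PD-1 and 183 ± 23.8 CPM untreated. Itgb8, the integrin beta chain with which Tregs activate latent TGF-beta, stood at 116, 139.8 and 156 CPM after anti-PD-1, against 259, 209.5 and 216 CPM untreated. Every anti-PD-1 library was below every untreated one. Its log2 fold change of -0.74 ± 0.17 (SE) missed edgeR's threshold (adjusted p = 0.136) and passed DESeq2's (adjusted p = 0.00946). Itgav, the alpha chain that pairs with it, had a log2 fold change of -0.37 ± 0.17 (SE, edgeR adjusted p = 0.569), while the values were 0.33 for the protease gene Furin and 0.23 for the latent TGF-beta anchor Lrrc32. Of the 8 tested genes of this list none passed edgeR in either direction. Their median log2 fold change was 0.09, and it turned to -0.19 without anti-PD-1 library 4 and to -0.15 in limma-voom. It also lay below 0, between -0.07 and -0.01, in limma-voom with quality weights and without anti-PD-1 library 6, untreated library 1 or untreated library 3. Tgfb2 and the 4 latent TGF-beta binding protein genes Ltbp1 to Ltbp4 did not pass the filter on low counts.

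Receptors and SMADs of the neighbouring activin and BMP branches did not pass. Of 12 other receptor genes 6 were tested, none passed, and the median was 0.08, against 0.31 without untreated library 1 and -0.20 without untreated library 3. Bmpr2, the BMP type II receptor, had the most counts of them and stood at 180.5, 187 and 164 CPM after anti-PD-1, against 218, 209.7 and 195 CPM untreated. These groups did not overlap, at a log2 fold change of -0.23 ± 0.16 (SE, edgeR adjusted p = 0.739). Acvr1b, Acvr2a and Bambi were at most 15.6 CPM in every library. Of the other SMADs, Smad1 (0.46 ± 0.60) and Smad5 (0.10 ± 0.21, log2 fold change with SE) were tested and did not pass, and Smad6 and Smad9 did not pass the filter on low counts.

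Of 16 genes for the turnover and modification of SMADs and receptors none passed edgeR, and the median was -0.06. At an unadjusted p under 0.05 in edgeR, 1 had a higher and 2 had lower values (all genes: 4.23% and 4.07%). Smurf1, a ubiquitin ligase that Smad7 brings to the receptor, stood at 55.1, 55.4 and 41.1 CPM after anti-PD-1, against 26.6, 36.9 and 34.99 CPM untreated. Its groups did not overlap, and its log2 fold change was 0.63 ± 0.25 (SE, edgeR adjusted p = 0.538). Ndfip1, an adaptor of the same ligase family, and Ppm1a, a phosphatase reported to act on Smad2 and Smad3, had log2 fold changes of -0.34 and -0.45 (edgeR adjusted p = 0.559 and 0.597), also without overlap. Usp4, a deubiquitinase of Tgfbr1, had a value of 0.40. Among 9 tested anchors, adaptors and other inhibitors none passed (median -0.03). Their 4 smallest p-values belonged to the endocytic adaptor Dab2 (-1.83 ± 1.01, at most 8.02 CPM), Fkbp1a, which binds the type I receptor (0.36 ± 0.27), Tgif2, a relative of Tgif1 (-0.42 ± 0.37), and Strap, which acts with Smad7 (-0.22 ± 0.22, log2 fold changes with SE). None of the 14 tested co-activators, co-repressors and DNA-binding partners passed (median 0.04). Runx1, a partner factor of SMADs and of Foxp3, was without overlap at 223, 216 and 179 CPM after anti-PD-1, against 171, 160.6 and 165 CPM untreated (log2 fold change 0.32 ± 0.16, edgeR adjusted p = 0.625). Snw1, Sp1 and Crebbp followed at -0.27, -0.20 and 0.15. Of the 10 kinases and adaptors of the branch that runs without SMADs, none passed (median -0.13), with Rock1 at -0.30, Shc1 at -0.31, Mapk8 at -0.24 and Map3k7 (TAK1) at -0.23.

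Genes known to respond to TGF-beta in T cells did not share a direction. Of 12 tested genes that TGF-beta is known to raise, none passed, and the median was 0.11. At an unadjusted p under 0.05 in edgeR, 1 had a higher and 1 a lower value (all genes: 4.23% and 4.07%). Itgae (CD103) stood at 733, 742.5 and 539 CPM after anti-PD-1, against 866, 909 and 918 CPM untreated. All 3 anti-PD-1 libraries were lower, at a log2 fold change of -0.42 ± 0.15 (SE, edgeR adjusted p = 0.461). Gpr83, a receptor gene of Tregs, had a log2 fold change of 0.87 ± 0.35 (SE, edgeR adjusted p = 0.538), Junb 0.22 and Foxp3 0.21. Of 12 tested genes that TGF-beta is known to lower, 1 rose (all genes: 0.029%), and 4 lay above 0 and 8 below. At an unadjusted p under 0.05 in edgeR, 3 had a higher and 3 a lower value, against the same shares of all genes. The median was -0.34, or -0.15 without untreated library 2. The gene that rose was Klf2, a transcription factor of resting T cells, with 316, 404 and 447 CPM after anti-PD-1, against 143, 103 and 115 CPM untreated (log2 fold change 1.69 ± 0.17, edgeR adjusted p = 1.25e-05). S1pr1, the lymphocyte egress receptor (0.69), and the inhibitor of E proteins Id3 (1.49) also had higher log2 values, and the inhibitory receptor Klrg1 (-0.84) a lower one. These 3 did not pass edgeR (adjusted p from 0.0933 to 0.448), and S1pr1 and Klrg1 passed DESeq2 (adjusted p = 0.000726 and 0.0262). DESeq2 gave no adjusted p for Id3.

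**Figure D5:**
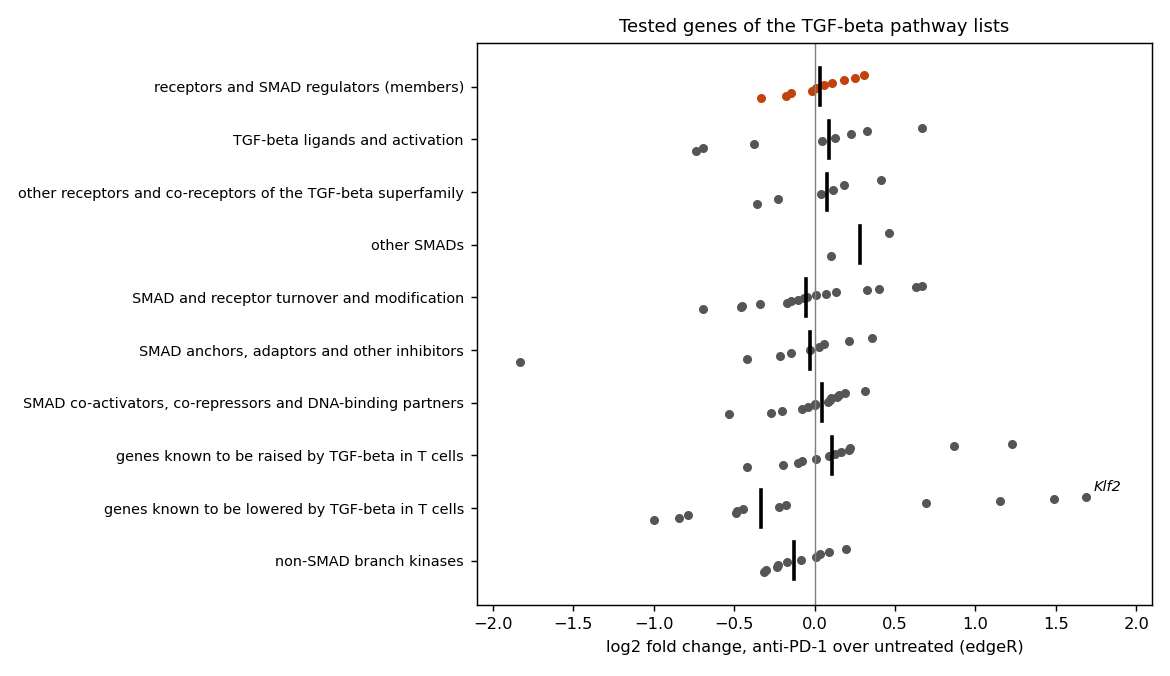
Log2 fold change (anti-PD-1 over untreated, edgeR) of each tested gene (points) in the 10-gene set and the 9 pathway lists, with the median of each list (black bars). The 10 genes lie between -0.33 and 0.31, and Klf2, at 1.69, is the gene that passed the test.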

How the data were processed

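RNA from sorted tumor Tregs was sequenced in 6 libraries made with the NuGEN Ovation SoLo kit, 3 from anti-PD-1-treated and 3 from untreated mice, per the labels' protocols. The authors deposited unnormalized fragment counts for each gene, using the UCSC annotation of mm10 and featureCounts 1.5.2 by strand (setting 1) on paired reads, per the file headers. The handling of duplicate reads is not given in the sources used here. Levels per length used the gene length, which the same program wrote. An unnamed column (1 in all) was not used, and 27 symbols that a spreadsheet had turned into dates stayed as rows, none of them a gene described here.

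EdgeR 4.0.16 in R 4.3.3 was run on the counts. The filter filterByExpr, at its minimum count of 10 and total of 15, kept 10352 genes holding 99.8% of counts. TMM factors scaled the libraries. The quasi-likelihood fit used robust shrinkage and the two-sided test had treatment as its only term, with a threshold of 0.05 after adjustment. Intervals are 95% intervals from that fit. Ratios used counts with 0.5 added. Shares and ratios were compared by exact permutation tests. The groups share no replicate number, so nothing was paired. For every pair of libraries the chi-square of the counts was at least 9.71 per degree of freedom, so none was a copy of another. The tests were checked on counts simulated from the means and dispersions of these libraries. The outcome of that check is not reported here.

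The 10 genes, the pathway lists and the rule for naming genes (all 10, and up to 4 of each list by smallest p) were chosen with earlier results of these data known. Tgfb1, Id2, Gzmb and the genes named as removed by the filter stand outside that rule. Synonyms matched 1 of 109 pathway entries and 2 of 64 cell type markers, and 2 markers matched no symbol. Alternatives were DESeq2 1.42.0, limma-voom (limma 3.58.1, also with quality weights), edgeR without robust shrinkage, other scalings and filters, thinned libraries and each library left out. The older quasi-likelihood method of edgeR was added after the data were seen. Proteins were not analysed here.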

Additional observations from a re-analysis of the deposited data

How the results depend on the processing

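None of the 10 genes passed in any of the 17 alternative settings, and the direction of Tgfbr1, Tgfbr2, Smad2, Smad3, Smad4 and Ldlrad4 was the same in all 17. Signs turned for the other 4 genes, and the cause was not tested. Smad7 stood at -0.0011 in DESeq2, -0.0017 with DESeq2's size factors, -0.0022 without a filter, -0.00035 with thinned libraries, and between -0.097 and 0.20 with 1 library left out. Tgif1 stood at 0.047 in limma-voom with quality weights, 0.023 with upper quartile scaling, 0.018 with library totals alone, 0.0081 with the stricter filter, 0.0040 with thinned libraries, and between -0.11 and 0.058 with 1 library left out. Skil stood at 0.029 in limma-voom with quality weights and between -0.28 and 0.11 with 1 library left out, and Ski between -0.018 and 0.13. The Skil to Ski ratio had a difference between -0.31 and 0.073 with 1 library left out. Tgfbr1 lost its unadjusted p under 0.05 (count 0 in place of 1) with upper quartile scaling, library totals alone and the stricter filter, and with 1 library left out the count was 0 or 1. The groups of Tgfbr1 did not overlap (count 1 in place of 0) without a filter and with thinned libraries. With 1 library left out, 0 to 3 of the 10 genes had higher values without overlap and 0 to 1 lower. The share of all tested genes without overlap is not given for 2 against 3 libraries, where full separation is easier to reach than for 3 against 3. These counts therefore cannot be read against 13.6%. Over all genes, where edgeR called 3 higher and 0 lower, DESeq2 called 21 higher and 13 lower, limma-voom 4 and 1, limma-voom with quality weights 8 and 4, edgeR without robust shrinkage 5 higher, upper quartile scaling 5 higher, library totals alone 6 and 1, and no filter 36 and 16. With 1 library left out the counts were 1 to 12 higher and 0 to 7 lower, the highest being 12 and 7 without untreated library 1. The counts of higher genes were 6 without untreated library 2, 5 without untreated library 3 and 1 without anti-PD-1 library 5. Of the pathway list genes, of which edgeR called 1 higher and 0 lower, DESeq2 and no filter each called 2 higher and 2 lower, limma-voom with quality weights 2 higher and library totals alone 2 higher. With 1 library left out these were 1 to 2 higher and 0 to 1 lower. Of 153 recomputed list medians 144 moved by less than the spread between libraries. Among these 144, the sign still turned in some settings for the ligands, the other receptors, the turnover genes and the anchors. Without untreated library 1, for example, the median was 0.078 for the turnover genes and 0.075 for the anchors. The other 9 belonged to the lists of ligands, other receptors, co-activators and kinases, and the sign turned for the ligands (-0.19 without anti-PD-1 library 4, -0.15 in limma-voom), the other receptors (-0.20 without untreated library 3) and the co-activators (-0.021 without anti-PD-1 library 5). No paired analysis was possible because the groups share no replicate number. The number of libraries limits the precision, as the intervals of each fold change show. The size of change that the test could detect is not reported here.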
